A study of Mus musculus with 18 samples.

Results

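The genes described here are 10 endothelial and angiogenesis genes out of the 25124 genes counted in 3 fat depots of obese mice: the growth factors Vegfa and Vegfb, their receptors Kdr and Flt1, the receptor Tek with its ligands Angpt1 and Angpt2, and the endothelial genes Pecam1, Cdh5 and Vwf. They were taken by symbol from the count tables, and all 10 were found in each table and passed the filter on low counts in each comparison. The depots were the inguinal (iWAT) and the epididymal (eWAT) white fat and the brown fat (BAT), taken from wildtype (WT) and caspase-6 knockout (C6KO) mice. Every group held 3 libraries, labelled as biological replicates, so that the 6 groups made 18 libraries. The mice were males on the C57BL/6J background, littermates and cagemates of both genotypes. C6KO mice lacked caspase-6 in the whole body, not in a chosen cell type. A high-fat diet (HFD, 60% fat) was begun at 10 to 14 weeks of age and lasted 12 weeks, and all mice were fasted for 10 h before the end. WT mice were thus obese controls and not lean ones. The comparison of C6KO with WT asked how loss of caspase-6 altered the adipose transcriptome under the diet. The libraries were made from whole pieces of tissue, in which fewer cells of a type and less RNA per cell cannot be told apart.

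Blood vessels of adipose tissue are lined by endothelial cells, which supply adipocytes with oxygen and fatty acids and which grow or regress with the tissue. Vegfa, made largely by adipocytes and other parenchymal cells, is the main growth signal for vessels and acts through Kdr (VEGF receptor 2), while Flt1 (VEGF receptor 1) binds Vegfa tightly, limits its signal and is the receptor of Vegfb. Angpt1 activates Tek (Tie2) and stabilises vessels, and Angpt2 can compete with it at the same receptor. Pecam1 and Cdh5 (VE-cadherin) hold endothelial cells together at their junctions, and Vwf is a secreted clotting protein stored in endothelial cells of larger vessels.

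In mm10, the build of the count tables, Vegfa lies at chr17:46016993-46032377 on the minus strand, Vegfb at chr19:6982472-6987651 (minus), Kdr at chr5:75932827-75978455 (minus), Flt1 at chr5:147561604-147726011 (minus) and Tek at chr4:94739289-94874976 (plus). Angpt1 lies at chr15:42424667-42676977 (minus), Angpt2 at chr8:18690263-18741562 (minus), Pecam1 at chr11:106654213-106715281 (minus), Cdh5 at chr8:104101625-104144502 (plus) and Vwf at chr6:125552948-125686679 (plus). The exons counted for Angpt1 share up to 653 bases with Gm17473, an antisense gene on the other strand, and the use of strand in counting was not stated, so reads of both genes cannot be told apart there.

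Promoter sequences of RefSeq (GRCm38.p6) were at hand for 5 of the 10 genes, namely Vegfa, Vegfb, Kdr, Flt1 and Tek. Estimates between genotypes were positive in every depot for Vegfa, Vegfb, Kdr, Flt1, Tek and Cdh5, and edgeR called none of them. The 250 bases before the start are shown for Vegfa, its receptors Kdr and Flt1, and the receptor Tek. They read 5′ to 3′ on the strand of the gene. Capitals mark GGGCGG (the GC box bound by Sp1 family factors) and GGAAG (the core bound by ETS factors, many of which act in endothelial cells) on either strand, so that CCGCCC and CTTCC stand for matches on the other strand. The promoters lie at chr17:46032378-46032627 (Vegfa), chr5:75978456-75978705 (Kdr), chr5:147726012-147726261 (Flt1) and chr4:94739039-94739288 (Tek).
Vegfa: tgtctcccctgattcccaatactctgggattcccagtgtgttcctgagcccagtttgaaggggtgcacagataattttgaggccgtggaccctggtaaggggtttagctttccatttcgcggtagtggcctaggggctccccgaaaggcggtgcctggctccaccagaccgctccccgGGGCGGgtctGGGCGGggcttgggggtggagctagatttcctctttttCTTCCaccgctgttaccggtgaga
Kdr: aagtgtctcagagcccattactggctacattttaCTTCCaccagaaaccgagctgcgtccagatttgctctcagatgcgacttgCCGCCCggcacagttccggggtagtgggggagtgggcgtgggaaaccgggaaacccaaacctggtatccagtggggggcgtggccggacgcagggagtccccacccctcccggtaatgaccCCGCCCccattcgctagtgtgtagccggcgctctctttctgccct
Flt1: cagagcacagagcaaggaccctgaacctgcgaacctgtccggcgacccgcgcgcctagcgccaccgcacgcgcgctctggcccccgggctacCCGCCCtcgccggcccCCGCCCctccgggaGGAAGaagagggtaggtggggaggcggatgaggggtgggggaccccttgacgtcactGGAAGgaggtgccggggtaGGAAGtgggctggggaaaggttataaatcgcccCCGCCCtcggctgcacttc
Tek: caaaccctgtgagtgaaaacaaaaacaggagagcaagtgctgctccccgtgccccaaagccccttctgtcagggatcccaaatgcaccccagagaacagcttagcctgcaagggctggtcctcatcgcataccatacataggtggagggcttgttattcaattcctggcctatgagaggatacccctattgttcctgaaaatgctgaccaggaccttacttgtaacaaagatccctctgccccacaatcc
The Flt1 window held 3 GC boxes, 153, 137 and 14 bases before the start, and 3 ETS cores, 124, 67 and 48 bases before it. Kdr held 2 GC boxes (161 and 40 bases before the start) and 1 ETS core (212 bases), and Vegfa held 2 GC boxes (67 and 57 bases) and 1 ETS core (20 bases). Vegfb, not printed, held 4 GC boxes and no ETS core, and Tek held neither motif. ACGTG, 1 form of the core of the hypoxia response element, was in none of these 5 windows. The other form, GCGTG, was not searched for or marked. It can be read in the printed windows of Kdr and, on the other strand, of Flt1. Among all 32851 promoters of this length, 32.7% held GGGCGG, 64.1% held GGAAG and 16.6% held ACGTG on either strand, so the short motifs are common. The windows were 59.2% (Vegfa), 61.6% (Kdr), 70.4% (Flt1) and 51.2% (Tek) G and C.

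BAT libraries held 7803108 to 12428683 counts, fewer than those of eWAT (16717201 to 19139694) and iWAT (16506034 to 19043523), so a gene at a given CPM rested on fewer counts in BAT. The counts themselves depended on the gene. In WT, Vegfa had 3221 to 4682 counts in BAT against 1503 to 1918 in eWAT, and Angpt2 had 17 to 31 against 488 to 549. Levels below are in CPM, counts brought to a common library size after TMM normalization, which scales libraries so that most genes keep a common level. Levels of different genes are compared only per kilobase of counted exon (CPM per kb). Casp6 served as the check of the genotype: its 3 C6KO libraries lay at 5.55, 6.15 and 8.09 CPM in iWAT against 16.2 to 20.3 CPM in WT. Neither eWAT (3.85 to 6.08 against 17.4 to 20.8 CPM) nor BAT (3.32 to 7.61 against 11.9 to 21.1 CPM) showed overlap. Casp6 itself was called by edgeR in eWAT (adjusted p = 0.0132) but not in iWAT (log2 difference -1.51, adjusted p = 0.0751) or BAT (-1.50, adjusted p = 0.0671), and by DESeq2 in all 3 depots. The depots carried their defining markers, with Ucp1, the thermogenic protein of brown fat, at 4467 CPM or more in every BAT library and at most 5.53 CPM elsewhere, and Upk3b, a mesothelial gene, at 13.99 to 70.8 CPM in eWAT and at most 0.18 CPM elsewhere. In BAT, WT library 2 held 44925 CPM of 12 skeletal muscle genes in sum, against 57.5 and 1991 CPM in the other WT libraries and 509 to 9083 CPM in C6KO. It was the lowest WT library of BAT for Vegfa, Kdr, Flt1, Tek, Pecam1, Cdh5 and Vwf. Between genotypes, results without it are given for Vegfa, Tek and Vwf only, and between WT depots where a call changed.

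In WT mice, 8 of the 10 genes were called between eWAT and iWAT, 4 between BAT and iWAT and all 10 between BAT and eWAT. Over all genes tested, 25.7%, 38.7% and 48.6% were called, as detailed after the levels. Per kb, the junction genes led in both white depots: Cdh5 stood at 125 ± 25.1 CPM per kb in iWAT (SD, n = 3) and 49.9 ± 3.96 in eWAT, followed by Pecam1 at 104 ± 16.2 and 48.1 ± 3.44, whose libraries overlapped those of Cdh5 in both depots. Next came Vegfb (85.4 ± 3.70 and 39.5 ± 5.47 CPM per kb) and Vegfa (59.2 ± 5.22 and 25.3 ± 3.95), which did not overlap each other. In BAT the ligands led instead, with Vegfb at 173 ± 12.1 and Vegfa at 133 ± 13.985 CPM per kb above Cdh5 at 95.5 ± 11.4 and Pecam1 at 74.1 ± 11.1, the last pair overlapping. The receptors were lower in every depot. In iWAT, Kdr (22.8 CPM per kb), Flt1 (18.1), Tek (14.5) and Vwf (11.7) each overlapped the next in that order, and in BAT Kdr (32.7), Flt1 (26.5) and Tek (18.2) did so. The angiopoietins were lowest in iWAT, with Angpt1 at 4.26 and Angpt2 at 3.10 CPM per kb. In BAT Angpt1 (4.43 CPM per kb) overlapped Vwf (3.95) and Angpt2 was last (0.804), and in eWAT Angpt2 (7.63 ± 0.64 CPM per kb) overlapped Flt1 (7.84 ± 1.85), which overlapped Vwf (7.91 ± 1.04).

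**Figure D1:**
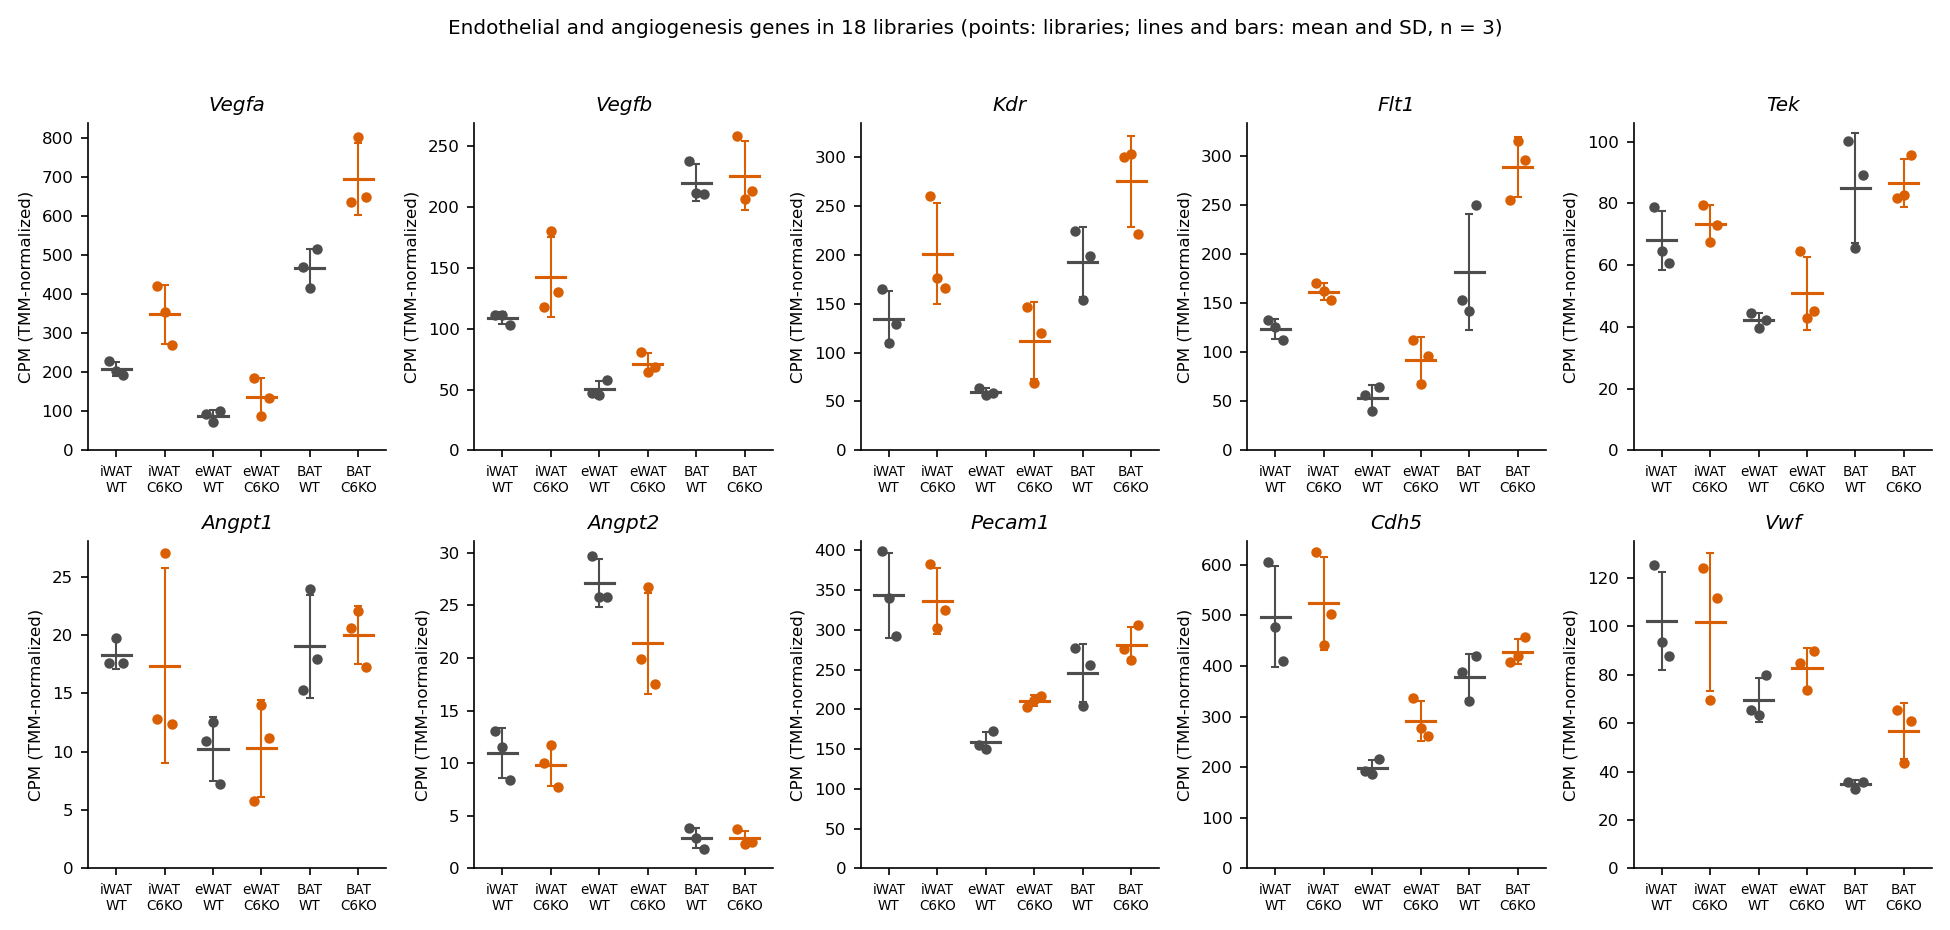
Normalized counts (CPM, linear axis) of the 10 genes in each of the 18 libraries, by depot and genotype, with group means. Most genes sit lowest in eWAT, while Angpt2 is highest there, at 25.8 to 29.7 CPM in WT against 1.87 to 3.79 CPM in BAT.

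In WT eWAT against WT iWAT, 7 of the 10 genes were lower and 1 was higher past the thresholds (edgeR's quasi-likelihood test in 1 fit of all 18 libraries, Benjamini-Hochberg adjusted p below 0.05 and at least 1.5-fold), where 25.7% of the 15866 genes tested were called, 12.9% of them lower and 12.8% higher. Cdh5 had the largest decrease among the 10, from 606, 476 and 410 CPM in iWAT to 192, 187 and 216 CPM in eWAT, a log2 difference of -1.33 (95% interval -1.68 to -0.98, adjusted p = 3.54e-05). No eWAT library came near an iWAT library. Vegfa fell from 192 to 228 CPM in iWAT down to 74.0 to 101 CPM in eWAT (log2 difference -1.23, adjusted p = 0.000631 in edgeR), and Flt1 (-1.20), Kdr (-1.17), Vegfb (-1.11) and Pecam1 (-1.11) fell by much the same on the log2 scale. Tek, the angiopoietin receptor, fell less, by 0.69 on the log2 scale (95% interval -1.05 to -0.33), and this was the least secure of the 7. Without iWAT WT library 1 the difference was -0.57, below 1.5-fold, as it was with total counts as the only scaling (-0.55). Angpt2 went the other way, from 8.40, 11.5 and 13.1 CPM in iWAT to 25.8, 25.8 and 29.7 CPM in eWAT (log2 difference 1.30, 95% interval 0.79 to 1.81, adjusted p = 0.00064 in edgeR). Its libraries did not overlap. Angpt1 (-0.84, 95% interval -1.52 to -0.16, adjusted p = 0.0558 in edgeR) and Vwf (-0.56, adjusted p = 0.0398, under 1.5-fold) were not called, though Angpt1 was past the thresholds in DESeq2 and Vwf without eWAT WT library 3 (-0.67) or iWAT WT library 3 (-0.66).

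BAT held more of both VEGF ligands than iWAT. In WT, Vegfa was at 417, 470 and 516 CPM in BAT against 192, 205 and 228 CPM in iWAT, a log2 difference of 1.17 (95% interval 0.69 to 1.64, adjusted p = 0.000467 in edgeR), and Vegfb was at 210.5, 212 and 238 CPM against 103, 111 and 112 CPM (1.02, 0.69 to 1.35, adjusted p = 5.48e-05). Neither gene overlapped between the depots. Angpt2 was lower in BAT, at 1.87, 2.90 and 3.79 CPM (-1.96, -2.53 to -1.39, adjusted p = 1.89e-05 in edgeR), and so was Vwf, at 32.6, 35.7 and 35.8 CPM against 87.8, 93.7 and 125 CPM in iWAT (-1.56, -1.99 to -1.13, adjusted p = 1.13e-05). These 4 of 10 genes were called where 38.7% of all genes were (20.1% higher and 18.7% lower in BAT), so the share of the 10 was near the background. Flt1 (0.55, adjusted p = 0.0458) and Pecam1 (-0.48, adjusted p = 0.0103) stayed under 1.5-fold in edgeR. Without BAT WT library 2, the library rich in muscle RNA, Flt1 was called at 0.70, as it was without BAT WT library 1 (0.66), and Pecam1 was called at -0.59 without iWAT WT library 3.

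All 10 genes were called between WT BAT and WT eWAT, where 48.6% of all genes were (25% higher and 23.6% lower in BAT). In edgeR, Vegfa was higher in BAT by 2.39 on the log2 scale (95% interval 1.90 to 2.89), Vegfb by 2.13, Flt1 by 1.76, Kdr by 1.69, Tek by 1.01, Cdh5 by 0.94, Angpt1 by 0.90 and Pecam1 by 0.62. Angpt2 was lower in BAT by 3.26 (log2 difference -3.26, 95% interval -3.84 to -2.68) and Vwf was too (-1.0004, -1.43 to -0.57). The calls of Angpt1 and Pecam1 were the weakest. For Angpt1 the adjusted p in edgeR was 0.0256, and 0.107 without BAT WT library 2, 0.111 without eWAT WT library 3 and 0.12 with total counts only. Pecam1 fell under 1.5-fold without BAT WT library 1 (0.53), without eWAT WT library 2 (0.58), with total counts only (0.33), when genes needed at least 10 counts in every library (0.49) and in a fit of the 6 libraries compared (0.58). The 3 depot contrasts share groups pairwise, so their values stand side by side and are not independent of each other. Scaling matters here: with total counts only, the median of all genes shifted by -0.29 between BAT and eWAT, by 0.14 between eWAT and iWAT and by -0.14 between BAT and iWAT on the log2 scale. Calls over all genes were then split as 2888 higher and 4987 lower in BAT against eWAT in place of 3962 and 3746, as 2665 and 1528 in eWAT against iWAT in place of 2034 and 2042, and as 2552 and 3641 in BAT against iWAT in place of 3185 and 2962.

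The same contrasts within C6KO compared other libraries but came from the same fit, so they shared its filter, scaling and dispersion estimates with the WT contrasts. Between eWAT and iWAT, 7 of the 10 genes were called in C6KO (24.6% of all genes), all in the direction they had in WT, with Vegfa at -1.36, Vegfb at -1.002, Cdh5 and Kdr at -0.84, Flt1 at -0.81, Pecam1 at -0.67 and Angpt2 at 1.12 on the log2 scale in edgeR. Tek, at -0.53, was under 1.5-fold, and was called without eWAT C6KO library 1 (-0.73). Kdr was not called without eWAT C6KO library 2 (-0.59) or iWAT C6KO library 1 (-0.61), nor Pecam1 without the latter (-0.57). Between BAT and iWAT, 5 genes were called (38.2% of all genes): Vegfa (0.998), Flt1 (0.84) and Vegfb (0.66) were higher and Angpt2 (-1.81) and Vwf (-0.85) lower in BAT. Vegfb was under 1.5-fold without BAT C6KO library 1 (0.55) or iWAT C6KO library 1 (0.54). Between BAT and eWAT, 7 genes were called (50.1% of all genes), with Vegfa at 2.36, Vegfb at 1.66, Flt1 at 1.65, Kdr at 1.30, Angpt1 at 0.96, Tek at 0.77 and Angpt2 at -2.93. Cdh5 (0.55), Pecam1 (0.42) and Vwf (-0.54), which were called in WT, were under 1.5-fold there, and Angpt1 was not called without BAT C6KO library 2 (adjusted p = 0.0593) or eWAT C6KO library 1 (adjusted p = 0.0846). With total counts as the only scaling, Tek (0.52) and Angpt1 (0.69, adjusted p = 0.0846 in edgeR) between BAT and eWAT, Vegfb between BAT and iWAT (0.57) and Pecam1 between eWAT and iWAT (-0.51) were not called, and Vwf between BAT and eWAT was (-0.80). Vwf was also called with at least 10 counts in every library (-0.61). Leaving out a library also added calls: Angpt1 between eWAT and iWAT without eWAT C6KO library 2 (-1.04) or iWAT C6KO library 3 (-0.95), and Kdr between BAT and iWAT without iWAT C6KO library 1 (0.68). Between BAT and eWAT, Cdh5 was called without BAT C6KO library 1 (0.59) or eWAT C6KO library 1 (0.67), and Vwf without BAT C6KO library 1 (-0.66), BAT C6KO library 3 (-0.60) or eWAT C6KO library 2 (-0.62).

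**Figure D2:**
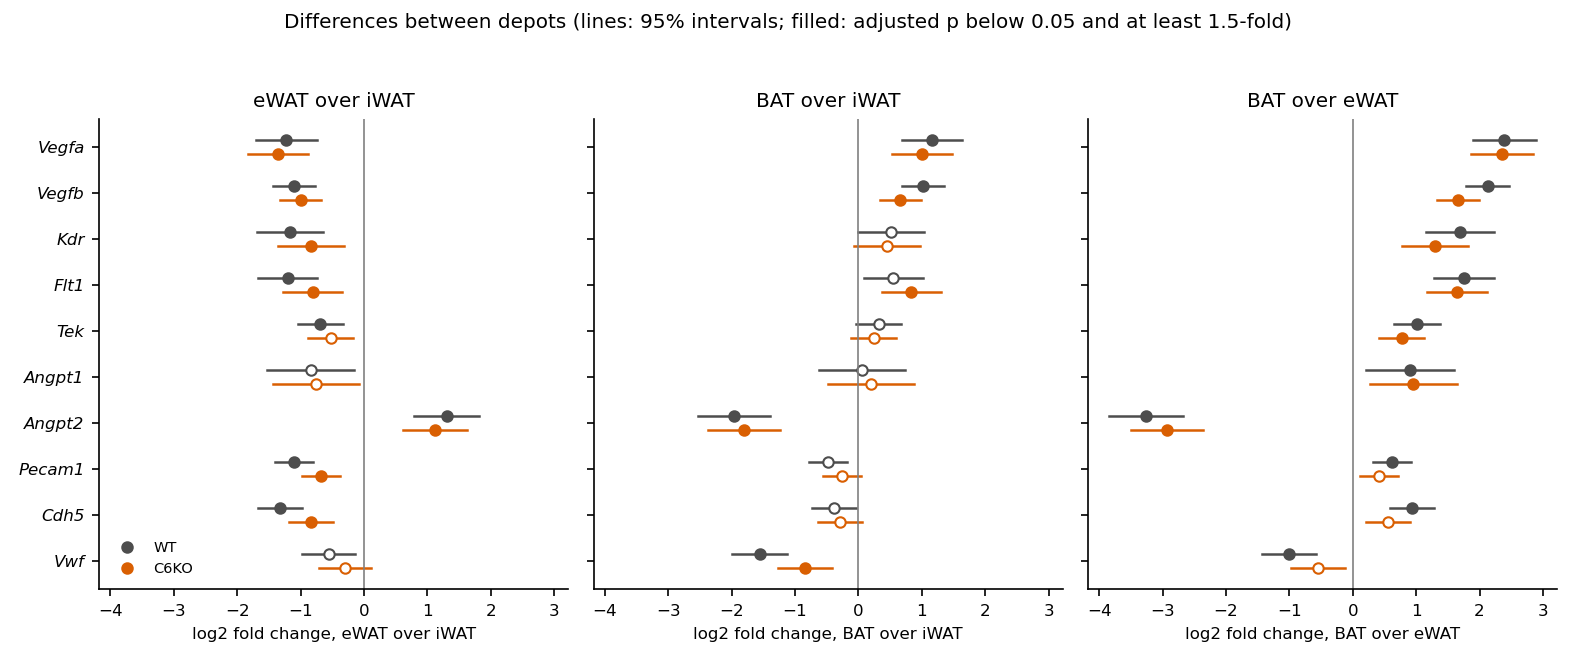
Log2 differences between depots for the 10 genes, with 95% intervals, from edgeR's fit of 18 libraries, for WT and C6KO side by side. Angpt2 is the gene that is higher in eWAT than in iWAT, at 1.30 in WT and 1.12 in C6KO, and Vegfa and Vegfb stand farthest above eWAT in BAT.

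Lists of other vascular genes were measured with the 10. In WT eWAT against iWAT, 23 of 30 pan-endothelial markers were called lower and 1 higher (all genes: 12.9% and 12.8%), with a median log2 difference of -1.18 (all genes: 0.01). They ranged from the tight junction gene Cldn5 at -2.08 to the transcription factor gene Lyl1 at 0.79, which blood cells also express. Of 10 capillary markers 9 were called lower (median -1.42), with the carbonic anhydrase gene Car4 at -1.74 the lowest, as were 7 of 10 arterial markers (median -1.08) and 9 of 13 pericyte and smooth muscle markers (median -0.95). Adipocytes also express Timp4, Fabp4, Aqp7 and Cd36 of the capillary list. Lymphatic markers stood apart in sign, with 3 of 8 called higher and 1 lower and a median of 0.56. Among 18 other angiogenic ligands 1 was called higher and 3 lower, and among 19 other receptors 2 were called higher and 8 lower, from the endothelial guidance receptor Robo4 at -1.46 to the integrin subunit gene Itgav at 1.16. In BAT against iWAT, 10 of 30 pan-endothelial markers were called lower and 0 higher in WT (all genes: 18.7% and 20.1%, median of the list -0.20), with Plvap, a protein of fenestrated endothelium, the lowest at -2.17, and 0 of 10 capillary markers were called in either direction (2 higher and 1 lower at an unadjusted p below 0.05, and 1 higher in DESeq2). The DESeq2 call was that of Kcnj8, which the pericyte and smooth muscle list also holds. Of 20 hypoxia response genes, 9 were called higher in BAT than in iWAT and 2 lower (all genes: 20.1% and 18.7%), and 0 were called higher in eWAT than in iWAT and 6 lower, among them Ddit4 at -1.38. White and brown depots also differed in other cell types: macrophage markers summed to 7183 to 9325 CPM in WT eWAT against 2181 to 2527 CPM in iWAT and 897 to 1247 CPM in BAT, with none of the 14 genes at 0 in every library of a group. Their part in the differences of the vascular genes was not tested.

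Between genotypes, Vegfa and its receptors Kdr and Flt1 had positive estimates in every depot, as did Vegfb, Tek and Cdh5. None of the 10 genes was called by edgeR in any depot. Over all genes, edgeR called 0.0275% in iWAT, 0.746% in eWAT and 1.24% in BAT. DESeq2, with the same thresholds, called Vegfa in iWAT (adjusted p = 0.00639), Kdr (0.0027) and Flt1 (0.00862) in eWAT, and Vegfa (0.0185) and Vwf (0.0207) in BAT, all higher in C6KO, and called 1.18%, 2.77% and 1.05% of all genes higher in the 3 depots. At an unadjusted p below 0.05 in edgeR, 4 of the 10 were higher in iWAT (Vegfa, Vegfb, Kdr and Flt1, where 7.25% of all genes were), 5 in eWAT (Vegfb, Kdr, Flt1, Pecam1 and Cdh5, against 9.81%) and 4 in BAT (Vegfa, Kdr, Flt1 and Vwf, against 4.56%). None of the 10 was lower at that p in any depot, where 9.29%, 7.82% and 8.64% of all genes were. These counts rested on few libraries: without iWAT WT library 3 or 2 they were 1 and 2 in iWAT, without eWAT C6KO library 2 there were 8 in eWAT, and without BAT C6KO library 2 there was 1 in BAT.

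Vegfa, the ligand, stood in iWAT at 192, 205 and 228 CPM in WT and 269.7, 355 and 422 CPM in C6KO. All 3 C6KO libraries lay above all WT libraries. The log2 difference was 0.75 (95% interval 0.34 to 1.15) with an adjusted p of 0.154 in edgeR. Library 3 of the C6KO group, the lowest of its group, was also the one with the most macrophage RNA, 1657 CPM over 14 markers against 606 and 650 CPM in the other C6KO libraries and 2181 to 2527 CPM in WT. Without it Vegfa was called (0.89, adjusted p = 0.00686), in a comparison that then called 327 genes higher and 951 lower in place of 1 and 3. In eWAT, Vegfa stood at 74.0, 92.1 and 101 CPM in WT and 87.7, 134 and 186 CPM in C6KO. The lowest C6KO library fell inside the WT range, and the difference of 0.62 (-0.02 to 1.25) had an adjusted p of 0.294 in edgeR. Without that library, number 2, the difference was 0.87 and passed (adjusted p = 0.0495 in edgeR). That comparison then called 254 genes higher and 93 lower, in place of 111 in either direction. Leaving out any other single library of eWAT gave no call of Vegfa. In BAT, Vegfa stood at 417, 470 and 516 CPM in WT and 636, 651 and 803 CPM in C6KO. The groups did not overlap, and the difference was 0.59 (0.19 to 0.99, adjusted p = 0.176 in edgeR), or 0.54 without the muscle-rich WT library 2.

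Vegfb, which binds Flt1 and has been tied to fatty acid uptake by endothelial cells, stood in eWAT at 45.2, 47.4 and 58.2 CPM in WT and 64.4, 68.8 and 80.6 CPM in C6KO. The groups did not overlap there, with a log2 difference of 0.51 (0.21 to 0.81, adjusted p = 0.0879 in edgeR). In iWAT it stood at 103, 111 and 112 CPM in WT and 118, 130.5 and 180.04 CPM in C6KO (0.40, 0.03 to 0.77, adjusted p = 0.275). In BAT the groups overlapped, at 210.5, 212 and 238 CPM in WT and 206, 213 and 258 CPM in C6KO, with an interval of the difference from -0.31 to 0.41 on the log2 scale. Within BAT libraries, where scaling cancels, the ratio of Vegfa to Vegfb per kb was 0.713, 0.714 and 0.886 in WT and 0.891, 1.11 and 1.41 in C6KO. The ratio did not overlap, but 3 libraries against 3 allow an exact permutation p no lower than 0.1, which is what it gave (two-sided, 0.6 after adjustment over 12 tests).

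Kdr, the receptor that carries most VEGF signalling into endothelial cells, had its largest difference in eWAT, at 56.6, 58.7 and 63.8 CPM in WT and 69.2, 119.6 and 147 CPM in C6KO. All C6KO libraries lay above WT, library 2 only narrowly, and the WT libraries lay close together. The log2 difference was 0.91 (0.32 to 1.51, adjusted p = 0.125 in edgeR), and without C6KO library 2 it was 1.18 and was called (adjusted p = 0.0104). Over all genes that comparison then called 254 higher and 93 lower, in place of 111 in either direction. Without C6KO library 1, the highest at 147 CPM, Kdr was not called. In iWAT, Kdr stood at 109, 129 and 165 CPM in WT and 166, 176 and 260.02 CPM in C6KO, so that the highest WT and the lowest C6KO library nearly met (0.58, 0.09 to 1.08, adjusted p = 0.238). In BAT, it stood at 154, 199 and 225 CPM in WT and 221, 299.7 and 303 CPM in C6KO, overlapping by 1 library (0.53, 0.09 to 0.97, adjusted p = 0.28).

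Flt1, the decoy-like receptor of Vegfa and Vegfb, was the 1 gene of the 10 whose C6KO libraries all lay above all WT libraries in each of the 3 depots, as did 0.64% of the 13132 genes tested in all depots. In iWAT it stood at 113, 126 and 133 CPM in WT and 153, 162 and 170.3 CPM in C6KO, a small but tight difference of 0.39 (0.12 to 0.66, adjusted p = 0.186 in edgeR). In eWAT it stood at 40.1, 56.2 and 65.1 CPM in WT and 67.5, 96.6 and 113 CPM in C6KO (0.78, 0.25 to 1.32, adjusted p = 0.137). In BAT it stood at 142, 154 and 250.04 CPM in WT and 255, 296 and 315 CPM in C6KO, where WT library 3 lay close to the C6KO range (0.68, 0.16 to 1.199, adjusted p = 0.23). The ratio of Flt1 to Kdr within libraries overlapped between genotypes in all depots, with log2 differences of 0.19 in BAT, -0.07 in eWAT and -0.18 in iWAT.

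Tek and its ligands had small estimates, with wide intervals for the ligands. Tek stood at 60.7 to 78.9 CPM in WT and 67.4 to 79.6 CPM in C6KO in iWAT, at 39.7 to 44.7 and 43.0 to 64.4 CPM in eWAT and at 65.5 to 100.3 and 81.8 to 95.7 CPM in BAT. The groups overlapped in every depot, with intervals of the log2 difference from -0.19 to 0.42 in iWAT, from -0.08 to 0.63 in eWAT and from -0.34 to 0.43 in BAT. Without the muscle-rich WT library 2, the Tek difference in BAT was -0.089. Angpt1, at 7.24 to 23.9 CPM over all WT libraries, had intervals from -0.75 to 0.61 in iWAT and from -0.75 to 0.77 in eWAT, which leave room for changes of more than 1.5-fold either way, and from -0.44 to 0.58 in BAT, just inside 1.5-fold. Angpt2 in eWAT stood at 25.8, 25.8 and 29.7 CPM in WT and 17.6, 19.9 and 26.8 CPM in C6KO. The highest C6KO library lay in the WT range, and the difference of -0.34 (-0.69 to 0.02) had an adjusted p of 0.315 in edgeR. Its interval was -0.69 to 0.38 in iWAT. In BAT, at 17 to 31 counts in WT and 23 to 29 in C6KO, it was -0.90 to 0.90, which leaves room for changes of more than 1.5-fold either way. Per kb, Angpt2 exceeded Angpt1 in eWAT, with a geometric mean ratio of 3.29 in WT and 2.65 in C6KO, and was below it in iWAT (0.717 and 0.725) and in BAT (0.177 and 0.169), and the genotypes overlapped in each depot.

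**Figure D3:**
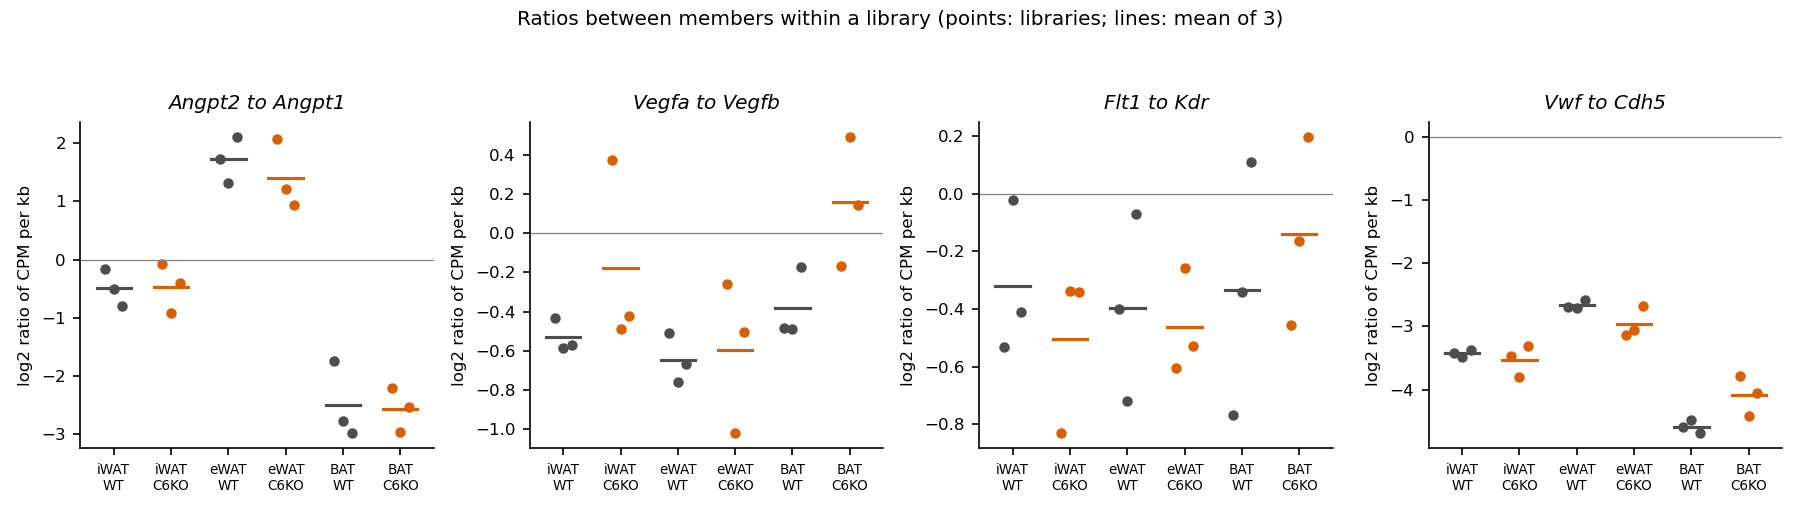
Ratios per kb between pairs of the 10 genes within each library (log axis), by depot and genotype. The Angpt2 to Angpt1 ratio separates the depots, and the Vegfa to Vegfb and Vwf to Cdh5 ratios in BAT do not overlap between genotypes.

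The junction genes differed between genotypes in eWAT more than in the other depots by estimate. Cdh5 stood in eWAT at 187, 192 and 216 CPM in WT and 261, 278 and 337 CPM in C6KO, and Pecam1 at 151, 155 and 172 CPM in WT and 203, 212 and 217 CPM in C6KO. Neither gene overlapped between the groups. The log2 differences were 0.56 for Cdh5 (0.28 to 0.84, adjusted p = 0.0632 in edgeR) and 0.41 for Pecam1 (0.18 to 0.63, adjusted p = 0.0757), the smallest adjusted p-values of the 10 genes in any depot. In DESeq2 both were below 0.05 (0.00175 and 0.00648) but under 1.5-fold. In iWAT both genes overlapped, Cdh5 at 410 to 606 CPM in WT and 443 to 625 CPM in C6KO and Pecam1 at 292 to 399 and 302 to 382 CPM, with intervals from -0.36 to 0.52 and from -0.39 to 0.34. In BAT they overlapped as well, with intervals from -0.18 to 0.56 and from -0.17 to 0.58. The difference of the genotype effect between eWAT and iWAT was 0.49 for Cdh5 (-0.00 to 0.97, adjusted p = 0.905 in edgeR) and 0.43 for Pecam1 (0.01 to 0.86, unadjusted p = 0.046, adjusted p = 0.902 in edgeR), so it did not pass for either gene.

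Vwf stood apart in BAT, at 32.6, 35.7 and 35.8 CPM in WT and 43.7, 61.0 and 65.6 CPM in C6KO. The groups did not overlap, and the WT libraries lay close together. The log2 difference was 0.72 (0.32 to 1.12, adjusted p = 0.104 in edgeR), or 0.70 without the muscle-rich WT library 2. In iWAT Vwf overlapped, at 87.8 to 125 CPM in WT and 69.8 to 124 CPM in C6KO (interval -0.52 to 0.52), and in eWAT it stood at 63.2 to 79.9 CPM in WT and 73.6 to 89.7 CPM in C6KO (interval -0.03 to 0.54). The ratio of Vwf to Cdh5 per kb in BAT was 0.0386, 0.0416 and 0.0447 in WT and 0.0470, 0.0604 and 0.0727 in C6KO, again without overlap and with the smallest exact permutation p that the design allows (0.1, two-sided, 0.6 after adjustment). The genotype effect on Vwf in BAT exceeded that in iWAT by 0.71 (0.12 to 1.31, unadjusted p = 0.0222, adjusted p = 0.397 in edgeR). No gene of the 10 was called in the 3 contrasts of the genotype effect between depots (eWAT against iWAT, BAT against iWAT and BAT against eWAT), where edgeR called 0%, 0.183% and 0.536% and DESeq2 0.0866%, 1.26% and 2.4% of all genes. Pecam1, Vwf and Vegfb were the 1 gene in each with an unadjusted p below 0.05 in edgeR, as were 5.48%, 9.93% and 11.2% of all genes. The effect on Vegfb was lower in BAT than in eWAT by 0.47 on the log2 scale (log2 difference -0.47, unadjusted p = 0.048, adjusted p = 0.438 in edgeR's quasi-likelihood test).

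**Figure D4:**
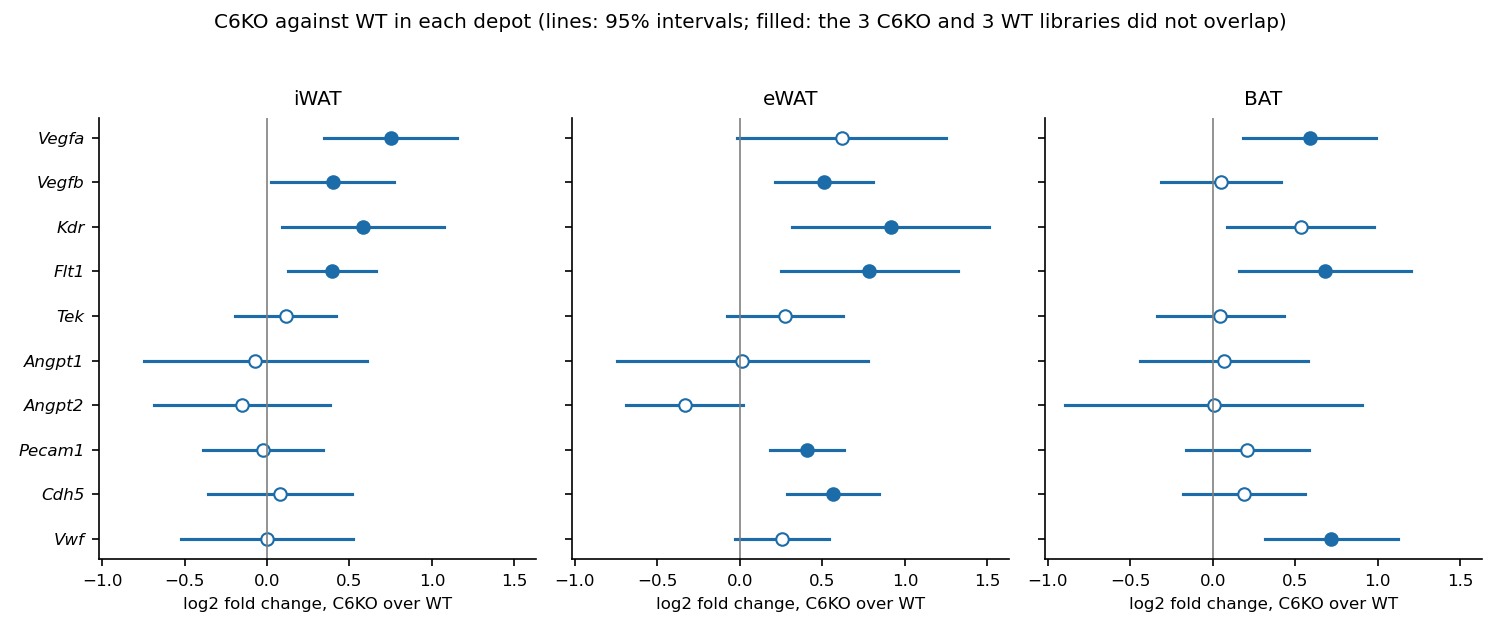
Log2 differences between C6KO and WT for the 10 genes in each depot, with 95% intervals from edgeR. Vegfa, Kdr and Flt1 lie above 0 in all depots, with only the eWAT interval of Vegfa reaching below 0, while Tek, Angpt1 and Angpt2 straddle it.

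Summed, the 10 genes amounted to 1414 to 1878 CPM in WT and 1753 to 2204 CPM in C6KO in iWAT, to 694 to 827 and 936 to 1242 CPM in eWAT and to 1584 to 1994 and 2304 to 2460 CPM in BAT. The sums overlapped in iWAT and did not in eWAT or BAT. Among the 10, 4 (iWAT), 5 (eWAT) and 3 (BAT) genes had all C6KO libraries above all WT libraries, where 10.9%, 11.6% and 7.45% of all genes did. None of the 10 had all C6KO libraries below all WT libraries in any depot, against 12.3%, 11.5% and 12.3% of all genes. Estimates were higher in all 3 depots for 6 genes (Vegfa, Vegfb, Kdr, Flt1, Tek and Cdh5), as for 21.2% of all genes. The 3 comparisons share no library, but they may share mice, which the sources used here did not give. Agreement between depots is therefore not taken as 3 independent repeats.

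Other endothelial genes were called higher in C6KO in eWAT. Of 30 pan-endothelial markers, 4 passed the test in eWAT, where 0.746% of all genes did, all higher: Cldn5, a tight junction protein (log2 difference 1.13, adjusted p = 0.0227), the transcription factor gene Sox18 (1.21, 0.0364), Robo4 (0.78, 0.0432) and Rasip1, needed for vessel lumens (0.75, 0.0468). Cldn5 stood at 37.6, 38.2 and 51.7 CPM in WT and 90.6, 92.4 and 95.8 CPM in C6KO, with a wide gap between the groups. At an unadjusted p below 0.05, 22 of the 30 were higher and 0 lower (all genes: 9.81% and 7.82%), and the median log2 difference was 0.46 (all genes: -0.01). Of 10 capillary markers 3 passed, all higher: Gpihbp1, which carries lipoprotein lipase across capillary endothelium (0.92, adjusted p = 0.0132 in edgeR), Rgcc (0.74, 0.032) and Timp4 (1.70, 0.0432), and the list's median was 0.86. Gpihbp1 stood at 48.2, 50.8 and 52.2 CPM in WT and 93.1, 94.1 and 97.4 CPM in C6KO, again with a wide gap. Adipocytes express Timp4, Fabp4, Aqp7 and Cd36 of that list as well. The lymphatic gene Mmrn1 (1.31, adjusted p = 0.0419) and the pericyte and endothelial gene Mcam (0.77, adjusted p = 0.0432) were also called higher in edgeR. These calls depended on single libraries. Leaving out 1 at a time, between 0 and 8 pan-endothelial and between 0 and 7 capillary markers were called, none without WT library 1 or WT library 2, no capillary marker without WT library 3, and most without C6KO library 2. The medians stayed between 0.42 and 0.53 and between 0.73 and 0.93. The lymphatic and pericyte lists kept 1 call each without C6KO library 2 and 0 without any other library.

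Among the other angiogenic ligands 0 of 18 were called in eWAT by edgeR (9 higher and 1 lower at an unadjusted p below 0.05, 2 higher in DESeq2, median 0.47). Of all genes in eWAT, 9.81% were higher and 7.82% lower at that p, and DESeq2 called 2.77% higher. These shares apply to each list of this paragraph. The matrix protein gene Thbs1, an inhibitor of angiogenesis, at 1.48 (adjusted p = 0.0835 in edgeR) and Efnb2, an arterial ephrin, at 0.57 (0.0809) came nearest to the threshold. Of 19 other receptors Robo4 alone was called, and Notch4 (0.58, adjusted p = 0.0468 in edgeR) was just under 1.5-fold. None of 9 venous or 10 arterial markers was called by edgeR (1 and 6 higher at an unadjusted p below 0.05, 0 lower, and 1 each in DESeq2), with medians of 0.18 and 0.35. None of 20 hypoxia response genes was called by edgeR (6 higher and 1 lower at that p, 1 higher in DESeq2, median 0.07), and the lowest adjusted p-values were those of Ndrg1 (0.54, 0.0546) and the hexokinase gene Hk2 (0.48, 0.0687).

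In iWAT no gene of these lists was called by edgeR, where the capillary list had the highest median of the vascular lists, 0.55 (all genes: 0.03), with 7 of 10 higher and 0 lower at an unadjusted p below 0.05 (all genes: 7.25% and 9.29%) and 3 higher in DESeq2 (all genes: 1.18%). For pan-endothelial markers those counts were 8 higher and 1 lower of 30, with 1 higher in DESeq2 and a median of 0.18, and for venous markers 0 higher and 1 lower of 9, with 0 in DESeq2 and a median of -0.38. Timp4, Fabp4, Aqp7 and Cd36 of the capillary list are also expressed by adipocytes, whose markers summed higher in C6KO iWAT. Eng, the TGF-beta co-receptor endoglin of endothelial cells (0.57, adjusted p = 0.165 in edgeR), and the atypical receptor gene Gpr182 (0.74, 0.168) had the lowest adjusted p-values among the pan-endothelial markers, Vegfd (-0.84, 0.165) and Igfbp3 (1.53, 0.296) among ligands and Plxnd1 (-0.56, 0.166) after Eng among receptors. Hypoxia response genes had a median of 0.08, with Ndrg1 (0.72, 0.181) and Bnip3 (0.53, 0.195) leading and 3 higher and 2 lower of 19 at an unadjusted p below 0.05 (1 higher in DESeq2). Without iWAT C6KO library 3, 34 genes of all 17 lists were called in place of 0, among them 4 pan-endothelial markers higher and 1 lower and 3 capillary markers higher.

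In BAT no vascular gene of these lists was called by edgeR, and DESeq2 called 1 ligand lower and 1 receptor higher (all genes: 389 lower and 156 higher). Pan-endothelial markers had a median of 0.12 (all genes: -0.03), with 0 higher and 2 lower of 30 at an unadjusted p below 0.05 (all genes: 4.56% and 8.64%), namely Cd34 (-0.58, adjusted p = 0.315 in edgeR), which progenitor cells also express, and Fli1 (-0.42, 0.331). Of 15 ligands tested 0 were higher and 3 lower at that p (median -0.23), against the same shares of all genes, among them Thbs1 (-0.99, adjusted p = 0.0727) and Thbs2 (-0.98, 0.228), both inhibitors of angiogenesis, and Notch1 (0.58, 0.124) and Itgav (-0.37, 0.277) came nearest among receptors. Of 19 hypoxia response genes 1 was higher and 3 lower at that p (0 in DESeq2, median 0.01), with Hif1a (-0.53, 0.253) and its regulator gene Vhl (-0.46, 0.288) the nearest.

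**Figure D5:**
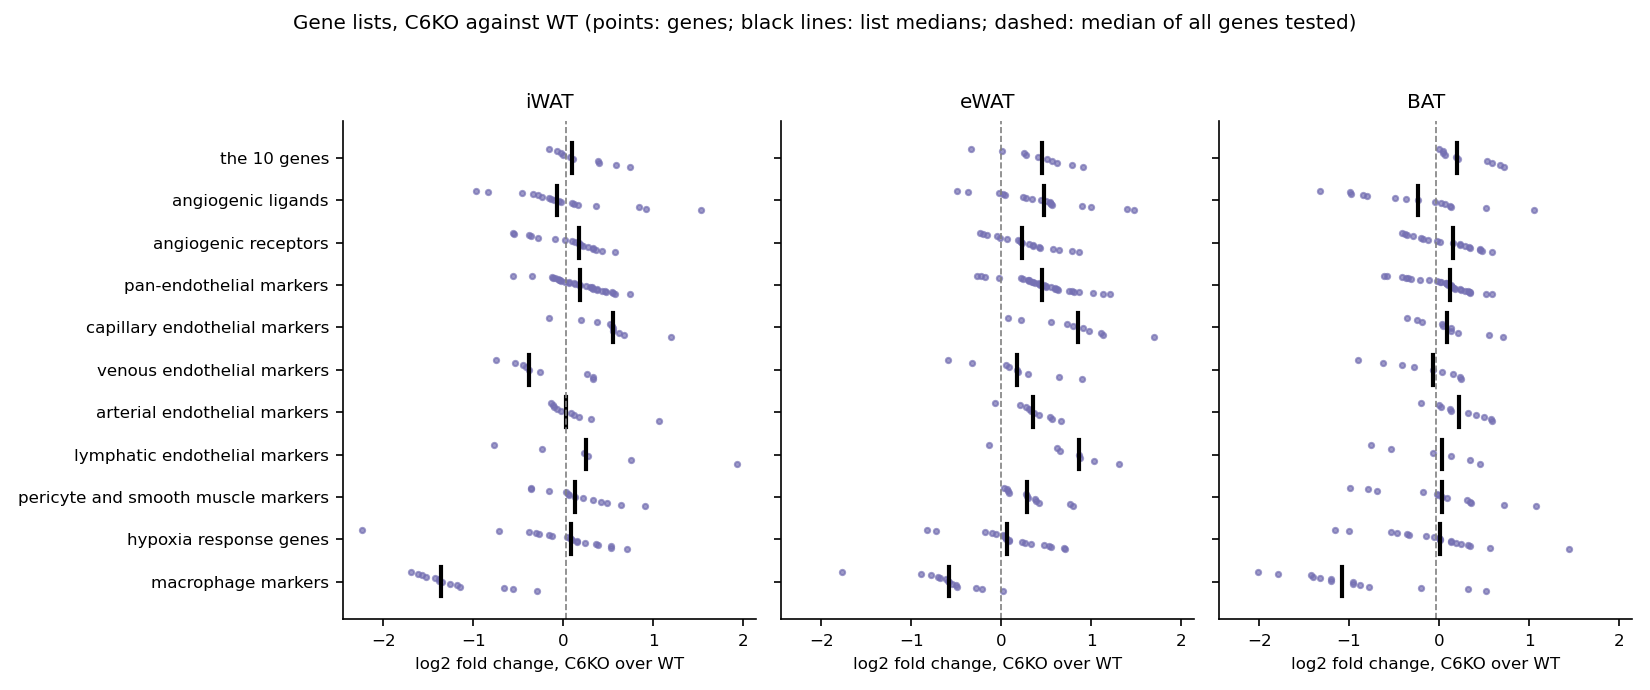
Log2 differences between C6KO and WT of every gene tested in the 10 genes and in the vascular and other gene lists, by depot, with the median of each list. Endothelial and capillary lists lie above 0 in eWAT, with medians of 0.46 and 0.86, while the medians of macrophage markers lie below 0 in all 3 depots.

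Other cell types moved with genotype in the same libraries. Macrophage markers summed to 606, 650 and 1657 CPM in C6KO iWAT against 2181 to 2527 CPM in WT, to 4452 to 6045 against 7183 to 9325 CPM in eWAT and to 372 to 555 against 897 to 1247 CPM in BAT, with no overlap in any depot and none of the 14 genes at 0 in every library of a group. In edgeR, Cd68 (-2.01, adjusted p = 0.0096), Adgre1 (-1.79, 0.0096), Lyz2 (-1.40, 0.0282) and C1qc (-1.20, 0.0431) fell in BAT, and 12 of 14 in iWAT and 12 of 14 in eWAT were lower at an unadjusted p below 0.05 (all genes: 9.29% and 7.82%). Adipocyte markers summed to 37939 to 43688 CPM in C6KO iWAT against 27942 to 31302 CPM in WT and to 14457 to 18422 against 10237 to 12136 CPM in eWAT, and overlapped in BAT. In eWAT, 2 of 10 passed the test, Lipe (0.72, adjusted p = 0.0432 in edgeR) and Plin1 (0.62, 0.0468), both of adipocyte lipid droplets, and in BAT the hormone gene Lep fell (-3.35, 0.0146). Pan-endothelial markers summed to 1755 to 2052 CPM in C6KO eWAT against 1362 to 1595 CPM in WT without overlap, and overlapped in iWAT and BAT. Pericyte markers in eWAT summed to 1168 to 1501 against 846 to 1099 CPM. Hepatocyte genes, which adipose tissue should lack, summed to 28.4 to 81.9 CPM in C6KO eWAT against 9.79 to 15.2 CPM in WT, where Ttr and Fga were called higher. In iWAT they summed to 46.7 to 289 against 13.9 to 58.0 CPM, with all 7 genes tested higher by estimate (median 2.22) and 0 called by edgeR or DESeq2 (1 at an unadjusted p below 0.05). Adipocyte progenitor markers (10 genes, none at 0 in every library of a group) were lower in sum in C6KO without overlap in every depot, at 1914 to 3476 against 4976 to 5051 CPM in iWAT, at 5265 to 6472 against 6757 to 8523 CPM in eWAT and at 835 to 1079 against 1333 to 1932 CPM in BAT. Brown adipocyte, progenitor and mesothelial genes gave 1 higher call (Kcnk3, 1.23), 2 lower (Col3a1, -1.70, and Lum, -1.14) and 1 higher (Lrrn4, 2.41) in BAT, and the platelet and skeletal muscle lists gave none in any depot in edgeR. The part of these cell types in the values of the vascular genes was not tested.

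The genes that varied most like Cdh5 and Vegfa across the 18 libraries, after each depot's mean was subtracted, were found among 14208 genes by Pearson correlation of log2 CPM, as a description over libraries that share genotype differences and tissue composition. For Cdh5 they included Flt4 (r = 0.91), Pcdh1 (0.89), Sema3g (0.89) and Efnb2 (0.89), with Pecam1 close behind (0.88). For Vegfa they were Eng (0.94), Slc22a5 (0.92), 3930402G23Rik (0.92), H6pd (0.92) and Map3k5 (0.91), with Kdr at rank 8 (0.90) and Flt1 at rank 26 (0.88). Cdh5 was at rank 660 (0.66) and Pecam1 at rank 1790 (0.48). Among the genes most like Cdh5, Kdr was at rank 73 (0.74) and Flt1 at rank 60 (0.74). Once the mean of each of the 6 groups was subtracted, 2 of the 5 genes remained among the 5 nearest to Cdh5 and 0 of 5 for Vegfa, with Kdr at 0.81 and Flt1 at 0.79. None of the neighbours named here was called between genotypes by edgeR in any depot. DESeq2 called Flt4, Pcdh1, Sema3g, H6pd, Kdr and Flt1 in eWAT, all higher in C6KO. It also called Slc22a5, H6pd and 3930402G23Rik higher in iWAT, and Slc22a5 and Map3k5 higher in BAT. Over all genes DESeq2 called 2.77% higher in eWAT, 1.18% in iWAT and 1.05% in BAT. The neighbours were picked by a pattern that kept the genotype difference in these same libraries. Their calls are therefore no separate evidence of a genotype effect.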

How the data were processed

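Poly(A) RNA of 18 libraries was sequenced on an Illumina instrument. The authors aligned reads to mm10 with STAR (default parameters), counted exon reads with HOMER (analyzeRepeats.pl), where 1 transcript stood for each gene, and deposited whole-number counts without normalization, 1 table per depot, with the exon length in bases of the transcript kept. Strand use, annotation release and tool versions were not given in the sources used here. The transcript kept differed between tables for 2619 of 25124 genes, among them Vegfa (3521 bases, 3520 in BAT). Groups and replicate numbers came from the labels, and 0 value columns lacked a sample.

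From the counts, edgeR 4.0.16 (limma 3.58.1, R 4.3.3) was run with filterByExpr, TMM and a robust quasi-likelihood fit, per depot for C6KO against WT and on all 18 libraries for contrasts of depots and of the genotype effect. A call needed an adjusted p (Benjamini-Hochberg, over all genes tested) below 0.05 and at least 1.5-fold. Common biological coefficients of variation were 0.321 (BAT), 0.192 (eWAT) and 0.216 (iWAT). The scripts were tested on simulated data. Ratios between genes used 12 exact permutation tests over libraries. Alternatives were DESeq2 1.42.0, other scalings and filters, other sets of libraries in the fit, the replicate number as a block and leaving out each library. The replicate numbers were not taken to pair the libraries. WT and C6KO libraries with the same number came from different animals, and their deviations correlated at -0.46 to -0.15 in BAT, -0.08 to 0.15 in eWAT and 0.02 to 0.07 in iWAT. Whether the depots of 1 genotype with the same number came from 1 mouse was not given in the sources used here, and their deviations correlated at -0.07 to 0.21. Plots were made in Python 3.11.15 (matplotlib 3.10.9).

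The 10 genes, 17 other lists (203 genes) and the tests were chosen with earlier results of these data known. Named besides the 10 and Casp6 were list genes called between genotypes, the 2 lowest adjusted p-values per depot in the ligand, receptor, pan-endothelial and hypoxia lists, the extremes of lists between WT depots, and the 5 genes nearest in pattern to Cdh5 and Vegfa, of which 1 is not reported here. Promoters came from RefSeq.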

Additional observations from a re-analysis of the deposited data

How the results depend on the processing

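Between genotypes, DESeq2 called 2 of the 10 genes in BAT, 2 in eWAT and 1 in iWAT, against 0 in each for edgeR. Of the other lists it called 23, 45 and 19 genes, against 9, 13 and 0. Over all genes its calls were 156 higher and 389 lower (BAT), 429 and 189 (eWAT) and 169 and 505 (iWAT). Leaving out single libraries, edgeR called 0 to 1 of the 10 in iWAT and 0 to 2 in eWAT and 0 to 34, 0 to 26 and 1 to 12 list genes in iWAT, eWAT and BAT. Over all genes these fits called at most 327 higher and 951 lower in iWAT (without C6KO library 3). In eWAT the most were 254 and 93 (without C6KO library 2), and in BAT 33 and 145 (without WT library 2). The numbers at an unadjusted p below 0.05, an alternative chosen after seeing the data like the list counts, were then 1 to 4, 5 to 8 and 1 to 4. With the replicate block, 1 gene of the 10 was called in eWAT (Flt1, 0.78, adjusted p = 0.0172 in edgeR). Over all genes that fit called 298 higher and 116 lower, in place of 111 in either direction. The block changed the calls of Angpt1 between eWAT and iWAT in both genotypes (-0.87 in WT, -0.73 in C6KO) and no other call of the 10. The counts of the 10 between depots stayed within 1.5 times under every alternative.

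Small differences changed sign. Angpt1 in eWAT was -0.030 with the block and -0.023 with total counts only, Angpt2 in BAT was -0.0081 in the fit of 18 libraries and -0.011 with total counts only, and Angpt1 between BAT and iWAT in WT was -0.00074 with at least 10 counts in every library and -0.076 with total counts only. The difference of the Vegfa effect between BAT and eWAT was 0.023 with at least 10 counts and 0.0015 with the block. Leaving out single libraries gave, for C6KO against WT, -0.54 to 0.11 (Angpt1), -0.13 to 0.10 (Pecam1), -0.071 to 0.25 (Cdh5) and -0.17 to 0.21 (Vwf) in iWAT, -0.25 to 0.31 (Angpt1) in eWAT, and -0.031 to 0.13 (Vegfb), -0.089 to 0.18 (Tek), -0.050 to 0.30 (Angpt1) and -0.20 to 0.25 (Angpt2) in BAT. It gave -0.14 to 0.19 for Angpt1 between BAT and iWAT in WT. For the genotype effect it gave -0.42 to 0.11 (Vegfa), -0.0091 to 0.32 (Vegfb), -0.043 to 0.27 (Tek) and -0.20 to 0.55 (Angpt1) in eWAT against iWAT. In BAT against iWAT it gave -0.24 to 0.17 (Kdr), -0.24 to 0.059 (Tek), -0.055 to 0.61 (Angpt1), -0.079 to 0.38 (Angpt2) and -0.065 to 0.25 (Cdh5), and in BAT against eWAT -0.27 to 0.26 (Vegfa), -0.29 to 0.19 (Flt1) and -0.23 to 0.34 (Angpt1). Log2 ratio differences ranged from -0.18 to 0.25 (Angpt2 to Angpt1, iWAT), -0.31 to 0.31 (the same, BAT), -0.12 to 0.26 (Vegfa to Vegfb, eWAT), -0.23 to 0.10 and -0.025 to 0.41 (Flt1 to Kdr, eWAT and BAT) and -0.22 to 0.028 (Vwf to Cdh5, iWAT). Of the 5 genes nearest in pattern, 2 remained for Cdh5 and 0 for Vegfa after centring by group. The causes were not tested. With 3 libraries a group and few counts, the interval of Angpt2 between genotypes in BAT (-0.90 to 0.90) left room for differences of more than 1.5-fold either way.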
